A study of Mus musculus with 9 samples.

Results

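The proteasome genes of mouse bone marrow cells were taken from counts of 3' sequence tags as every protein-coding symbol made of Psma, Psmb, Psmc, Psmd, Psme, Psmf or Psmg and a number. Matching of the Ensembl identifiers to symbols found 48 such genes among 21159 in the table. They fall into 8 genes for alpha subunits and 8 for beta subunits of the 20S core outside the immunoproteasome, 6 for ATPases and 11 for non-ATPase subunits of the 19S regulatory cap, 5 of the immunoproteasome (Psmb8, Psmb9, Psmb10, Psme1 and Psme2), 3 for other activators or inhibitors (Psme3, Psme4 and Psmf1), 4 for assembly chaperones of the core (Psmg1 to Psmg4) and 3 for assembly chaperones of the cap (Psmd5, Psmd9 and Psmd10). The 16 core genes, called constitutive below to set them apart from the immunoproteasome, include Psma8 of the testis and Psmb11 of the thymus. Psme2b, Psmc3ip and a pair of Psmb6 pseudogenes carry near names and were not members.

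The data were 9 libraries, 3 in each of 3 groups, from lineage-depleted marrow cells that all carried Runx2fl/fl and the CreERT2 transgene. Runx2ko and Runx2wt cells had been transformed by a retrovirus for the leukaemia fusion KMT2A-MLLT1 (MLL-ENL), replated in methylcellulose at 7-day intervals and then grown in suspension. Runx2ko cells received 4-hydroxytamoxifen (4-OHT), which activates the Cre, at 400 nM over 24 hours, and Runx2wt cells received ethanol. BM progenitor cells were untreated, and their RNA was taken before the first replating; the labels do not say whether these cells carried the fusion. Culture form, passage and transformation differ together between transformed and BM progenitor cells, and 4-OHT goes with the Runx2ko label in every library, so their parts in a difference cannot be told apart. The labels name all samples as independent biological replicates, whereas the extraction text names T-ALL cells, which fits no other label. No source used here gives the line, age or sex of the mice.

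Libraries held 3118594 to 5348177 counts. The targeted gene did not separate the labels: Runx2 was at 21.0, 120.1 and 135 CPM (counts per 1000000) in the libraries labelled Runx2ko, 159, 179 and 131 CPM in Runx2wt and 53.3, 46.7 and 58.8 in BM progenitor, and the difference between Runx2ko and Runx2wt did not pass (log2 fold change -0.76, SE 0.51, edgeR adjusted p = 0.725). Where in the gene the floxed part lies relative to the 3' tags is unknown from the sources used, so directions for Runx2ko are those of the libraries under that label. Runx2ko replicate 1 stood apart by its markers, with 3902 summed CPM of 11 mast cell and basophil genes, against 44.9 and 477 CPM in the other Runx2ko libraries, 71.7 to 310 CPM in Runx2wt and 1029 to 1174 in BM progenitor. In the same library the 8 erythroid and megakaryocyte markers summed to 1541 CPM, against 36.2 and 49.9 CPM in the other Runx2ko libraries, 8.47 to 80.1 CPM in Runx2wt and 90.3 to 94.5 in BM progenitor. Monocyte and macrophage markers, 10 genes, summed to 466 CPM in Runx2ko replicate 1, against 2018 and 4622 CPM in the other Runx2ko libraries. They summed to 2162 to 3227 CPM in Runx2wt and 1488.5 to 2235.5 in BM progenitor. All 10 neutrophil markers had counts in every Runx2ko and BM progenitor library. Their summed level was 200.2, 5071 and 8987 CPM in Runx2ko replicates 1, 2 and 3, 879 to 3697 CPM in Runx2wt and 11160 to 15371 in BM progenitor. Of 9 eosinophil markers 8 were in the table and summed to 8.75 to 18.1 CPM in Runx2ko, 2.49 to 4.52 CPM in Runx2wt, where Epx, Ear1, Ear2 and Ccr3 were at 0, and 1377 to 1839 CPM in BM progenitor. The 10 dendritic cell markers summed to 58.8 to 176 CPM in Runx2ko, 62.1 to 127 CPM in Runx2wt and 366 to 491.5 in BM progenitor. T and B lymphoid markers, 12 genes, summed to 67.6 to 129.8 CPM in Runx2ko, 34.2 to 91.5 CPM in Runx2wt and 60.0 to 92.6 in BM progenitor. Ptcra was at 0 in Runx2ko and Runx2wt, Cd3e and Cd79a in Runx2wt, and Cd3g and Rag2 in Runx2wt and BM progenitor. The 8 stem and progenitor markers summed to 533 to 1251 CPM in Runx2ko, 651 to 825 CPM in Runx2wt and 356 to 371 in BM progenitor. All 8 of them had counts in every BM progenitor library, against 6 to 8 in Runx2ko and 6 to 7 in Runx2wt libraries. This list holds Hoxa9 and Meis1, and shares Gata2 with the mast cell list and Flt3 with the dendritic cell list. The part of these cell types in the results below was not tested, and in bulk RNA fewer cells of a type and less RNA per cell cannot be told apart.

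The proteasome degrades proteins tagged with ubiquitin. Its 20S core is a barrel of stacked alpha and beta rings with proteolytic sites inside the beta rings, and a 19S cap recognises, unfolds and feeds in the substrate through a ring of ATPases. Haematopoietic cells also make immunoproteasomes, in which Psmb8, Psmb9 and Psmb10 take the places of the catalytic subunits Psmb5, Psmb6 and Psmb7, and interferon-gamma raises these genes and the activator genes Psme1 and Psme2. Dedicated chaperones build the core and the cap, and the transcription factor Nfe2l1 (Nrf1), acting at antioxidant response elements, raises subunit genes when proteasome activity is short. Proteasome inhibitors are used against the plasma cell cancer multiple myeloma.

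The promoters show what the genes share in sequence. RefSeq windows of 300 bases (250 before to 50 after a transcript's start, build GRCm38.p6) were held for 40 of the 48 genes, as 43 windows. A motif was searched on both strands: the antioxidant response element core TGACNNNGC, the NF-Y box CCAAT, the interferon-gamma activated site TTCNNNGAA and the interferon-stimulated response element (GAAA, any 2 bases, GAAA). The antioxidant core stood in 15.0% of the 40 genes, against 14.0% of 27025 genes with a window, and CCAAT in 35.0% against 41.1%, so neither share was high in the proteasome genes as a set. CCAAT stood in 7 of 12 genes for the constitutive core, Psmb11 among them, and in 4 of 14 for the cap. The interferon-gamma site was in 7.5% of the proteasome genes against 9.55% of all, and the interferon-stimulated element in 12.5%, or 5 of 40, against 3.99%. Genes with the interferon-gamma site were Psmb8, Psmd2 and Psmg1. Those with the interferon-stimulated element were Psmb3, Psmd4, Psmd9, Psmg4 and Psme1. Psmb8 and Psme1 were the only immunoproteasome genes among them. A match of letters is a description of the window and not a site of binding, and a window without a match says nothing of a factor. Shown are Psmb10, whose level differed most among the immunoproteasome genes and whose window held none of the 4 motifs, then Psma3, Psmb6, Psmd12, Psmb8 and Psme1, with the motif in capitals on the strand of the gene. The capitals mark CCAAT or its reverse complement in Psma3, the antioxidant core in Psmb6 and, in reverse, Psmd12, the interferon-gamma site in Psmb8 and the interferon-stimulated element, in reverse, in Psme1. The first base of the match lay at position -9 from the start in Psmb6, -247 in Psmd12, -97 in Psmb8 and 10 in Psme1, where 1 is the first transcribed base.
Psmb10 (chr8:105938343-105938642, minus strand): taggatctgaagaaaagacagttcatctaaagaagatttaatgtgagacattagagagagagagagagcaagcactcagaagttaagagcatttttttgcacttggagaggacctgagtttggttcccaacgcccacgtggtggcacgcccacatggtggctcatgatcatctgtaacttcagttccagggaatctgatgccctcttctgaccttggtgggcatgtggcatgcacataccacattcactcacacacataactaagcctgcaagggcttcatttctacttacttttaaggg
Psma3 (chr12:70974373-70974672, plus strand): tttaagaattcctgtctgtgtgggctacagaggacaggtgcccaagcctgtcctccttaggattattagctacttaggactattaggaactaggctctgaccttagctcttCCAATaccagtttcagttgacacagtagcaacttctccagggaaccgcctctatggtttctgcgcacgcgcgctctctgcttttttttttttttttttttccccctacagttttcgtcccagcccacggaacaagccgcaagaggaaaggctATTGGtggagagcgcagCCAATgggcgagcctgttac
Psmb6 (chr11:70525107-70525406, plus strand): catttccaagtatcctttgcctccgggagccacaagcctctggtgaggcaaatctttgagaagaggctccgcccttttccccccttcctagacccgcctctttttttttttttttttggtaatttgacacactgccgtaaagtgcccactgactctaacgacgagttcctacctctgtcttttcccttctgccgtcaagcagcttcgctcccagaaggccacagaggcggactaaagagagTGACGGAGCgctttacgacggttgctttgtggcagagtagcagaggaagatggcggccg
Psmd12 (chr11:107479278-107479577, plus strand): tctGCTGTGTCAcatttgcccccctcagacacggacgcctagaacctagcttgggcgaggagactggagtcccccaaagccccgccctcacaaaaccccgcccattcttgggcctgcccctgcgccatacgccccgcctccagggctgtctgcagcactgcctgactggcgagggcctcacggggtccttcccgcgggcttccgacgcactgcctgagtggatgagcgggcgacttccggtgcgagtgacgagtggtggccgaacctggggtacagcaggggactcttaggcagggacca
Psmb8 (chr17:34197945-34198244, plus strand): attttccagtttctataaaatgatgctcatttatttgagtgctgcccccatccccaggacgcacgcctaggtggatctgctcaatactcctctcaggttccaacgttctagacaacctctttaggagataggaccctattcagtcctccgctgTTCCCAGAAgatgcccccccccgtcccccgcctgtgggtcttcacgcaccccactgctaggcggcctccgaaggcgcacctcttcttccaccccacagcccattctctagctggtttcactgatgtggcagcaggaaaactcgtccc
Psme1 (chr14:55578244-55578543, plus strand): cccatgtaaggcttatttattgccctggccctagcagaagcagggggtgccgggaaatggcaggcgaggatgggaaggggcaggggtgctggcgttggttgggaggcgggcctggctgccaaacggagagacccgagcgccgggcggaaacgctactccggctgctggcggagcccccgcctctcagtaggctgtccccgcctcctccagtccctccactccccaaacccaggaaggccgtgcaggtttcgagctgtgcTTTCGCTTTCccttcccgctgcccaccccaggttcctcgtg

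Summed transcripts for the 20S core, the 19S cap and the immunoproteasome were lower in every transformed library than in any BM progenitor library. The 48 genes took 0.745% to 0.879% of the counts in Runx2ko libraries, 0.839% to 0.978% in Runx2wt and 1.22% to 1.30% in BM progenitor. CPM of the 16 constitutive core genes summed to 3414, 3583 and 3347 in Runx2ko, 4075, 3955 and 4182 in Runx2wt and 5386, 5096 and 4937 in BM progenitor. The groups did not overlap, with Runx2ko lowest and BM progenitor highest, and the mean sums were 3448 ± 122, 4071 ± 114 and 5140 ± 228 CPM (SD, n = 3 each), or 67.1% of BM progenitor in Runx2ko and 79.2% in Runx2wt. The 17 cap genes summed to 3496, 3892 and 3108 CPM in Runx2ko, 3811, 3599 and 4617 in Runx2wt and 5452, 5248 and 4913 in BM progenitor. Here the transformed groups overlapped each other and both lay below BM progenitor. The 5 immunoproteasome genes summed to 746, 545 and 675 CPM in Runx2ko, 599.6, 621 and 629.9 in Runx2wt and 982, 771 and 904 in BM progenitor. Both transformed groups lay below BM progenitor, at 74.0% of its mean in Runx2ko and 69.7% in Runx2wt. Runx2ko had libraries on both sides of Runx2wt. The 7 assembly chaperone genes summed to 476, 587 and 413 CPM in Runx2ko, 516, 463 and 546 in Runx2wt and 578, 608 and 564 in BM progenitor, with Runx2ko replicate 2 inside the BM progenitor range. A summed level carries no test here.

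**Figure D1:**
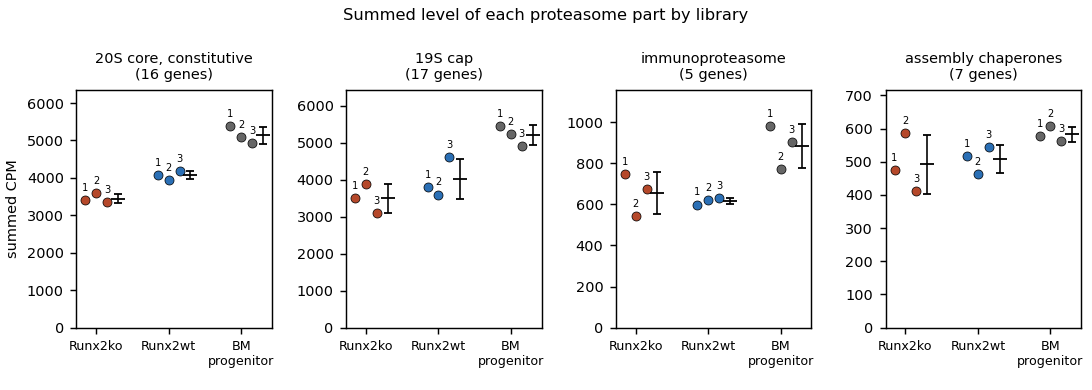
Summed CPM (y axis, from 0) of the genes of the constitutive 20S core, the 19S cap, the immunoproteasome and the assembly chaperones in each library; points are libraries with their replicate number, and bars give the mean ± SD of each group (n = 3). The 3 core sums of Runx2ko lie between 3347 and 3583 CPM, below the Runx2wt and the BM progenitor sums. Immunoproteasome sums of Runx2ko lie above and below those of Runx2wt, and both groups lie below BM progenitor.

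Across genes, 47 of the 48 had enough counts to be tested, each in a fit of all 11196 tested genes. In Runx2ko against BM progenitor cells 24 passed (edgeR quasi-likelihood test, Benjamini-Hochberg adjusted p under 0.05) and all 24 were lower in Runx2ko; 0 were higher and 23 did not pass. That is 51.1% of the tested proteasome genes, against 7.14% of all tested genes that passed as lower (10.0% as higher). Their median log2 fold change was -0.56, against 0.07 for all tested genes, and 43 of 47 had a value below 0, against 46.2% of all genes. Libraries of the groups did not overlap, with Runx2ko below, for 35 of the 47 genes, against 18.8% of all genes. In Runx2wt against BM progenitor cells 10 passed as lower, 0 as higher and 37 did not pass, which is 21.3% against 5.23% of all tested genes lower (8.28% higher). The median was -0.42, against 0.01 for all genes, 41 of 47 values were below 0, against 49.3% of all genes, and groups did not overlap for 32 genes with Runx2wt lower, against 24.5% of all genes. Both comparisons use the same BM progenitor libraries, and the number of calls depends on them. Without BM progenitor replicates 1, 2 and 3 in turn, 2, 4 and 6 proteasome genes passed as lower in Runx2ko, while the genes called in either direction over the whole table numbered 498, 435 and 405 in place of 1924. Without Runx2ko replicate 1, 26 passed. In Runx2wt 0, 1 and 0 passed without BM progenitor replicates 1, 2 and 3 and 3, 0 and 3 without Runx2wt replicates 1, 2 and 3, whereas 15 passed without Runx2ko replicate 1. The median log2 fold change stayed between -0.64 and -0.52 in Runx2ko and between -0.52 and -0.36 in Runx2wt over 19 ways of fitting, those with a library left out included.

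**Figure D2:**
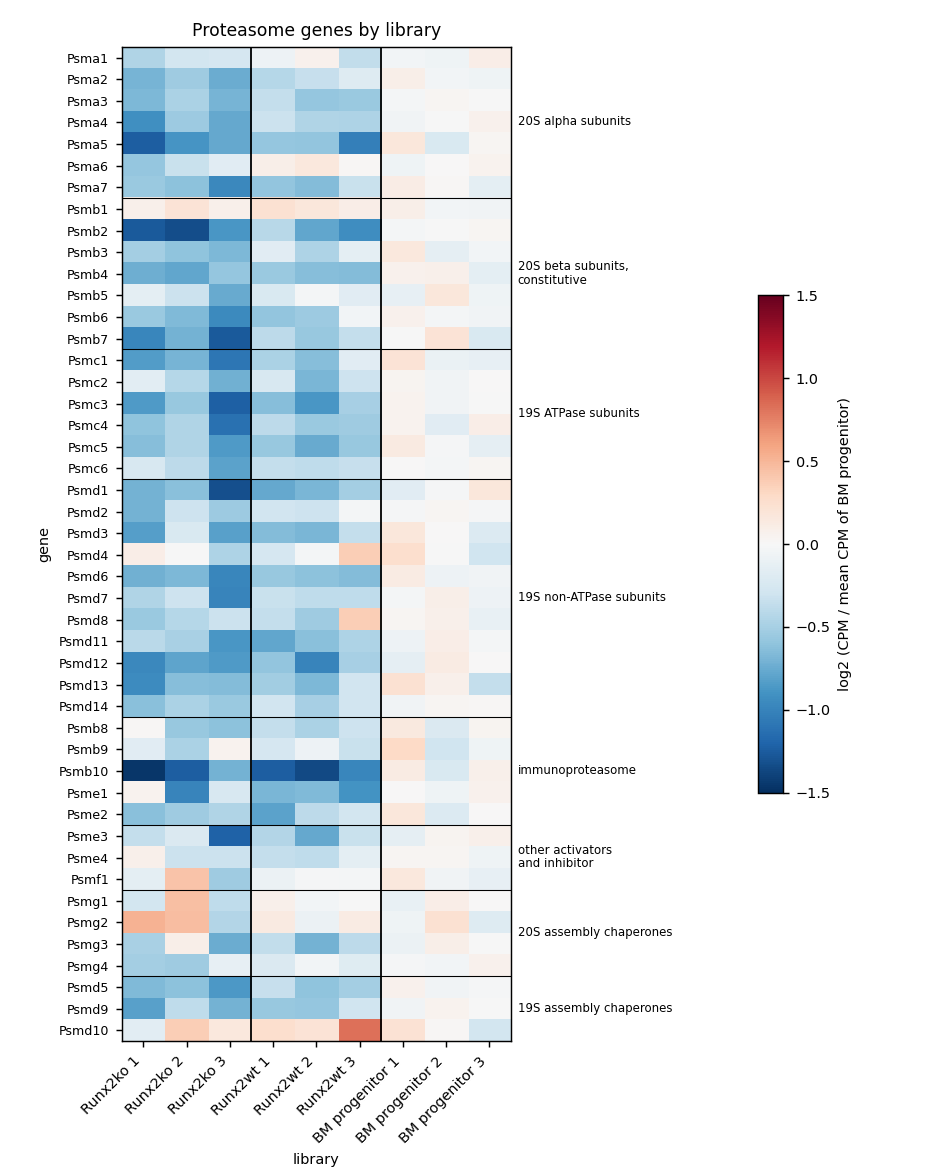
Level of 46 proteasome genes (rows, grouped by role) in each of the 9 libraries (columns), as the log2 ratio of the gene's CPM to its mean in BM progenitor libraries; blue is lower and red is higher, and Psma8 and Psmb11 are left out for their low counts. Most core and cap rows are blue in the Runx2ko and Runx2wt columns, Psmb10 is at 48.8 to 81.9 CPM in Runx2ko and 52.4 to 68.2 in Runx2wt against 115 to 146 in BM progenitor, and Psmb1 and Psmg2 stay near or above the BM progenitor mean in most libraries.

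Alpha subunits form the outer rings of the core, which gate it. Of 8 tested alpha genes 5 were lower in Runx2ko than in BM progenitor (Psma2, Psma3, Psma4, Psma5 and Psma7) and 2 were lower in Runx2wt (Psma3 and Psma5). The shares of all tested genes that passed as lower were 7.14% and 5.23%. Psma5 had 65.0, 82.8 and 89.7 CPM in Runx2ko, 102, 101 and 75.1 CPM in Runx2wt and 172, 131 and 156 in BM progenitor. BM progenitor lay above both transformed groups, which overlapped each other, and the log2 fold change was -0.95 (SE 0.20, edgeR adjusted p = 0.0148) in Runx2ko and -0.72 (SE 0.20, edgeR adjusted p = 0.0408) in Runx2wt. Psma4 stood at 74.4, 95.9 and 82.1 CPM in Runx2ko, 112, 102 and 102 CPM in Runx2wt and 135, 139 and 146 in BM progenitor. None of the groups overlapped, and the log2 fold change against BM progenitor was -0.74 (SE 0.15, edgeR adjusted p = 0.0138) in Runx2ko and -0.41 (SE 0.15, edgeR adjusted p = 0.0908) in Runx2wt, which did not pass. Psma2 was at 643, 722 and 623 CPM in Runx2ko, 775, 820.1 and 910.0 CPM in Runx2wt and 1114, 1018 and 999 in BM progenitor. Runx2ko was again lowest with no overlap, at -0.66 (SE 0.14, edgeR adjusted p = 0.0147) against BM progenitor, and Runx2wt did not pass at -0.32 (SE 0.13, edgeR adjusted p = 0.134). Psma3 had 129, 148 and 128 CPM in Runx2ko, 161, 138 and 141 CPM in Runx2wt and 203, 211 and 206 in BM progenitor. Both transformed groups lay below BM progenitor, at -0.61 (SE 0.14, edgeR adjusted p = 0.0197) in Runx2ko and -0.49 (SE 0.14, edgeR adjusted p = 0.0445) in Runx2wt. Psma7 was at 61.4% of its BM progenitor level in Runx2ko (-0.70, SE 0.17, edgeR adjusted p = 0.0217). Psma1 and Psma6 did not pass, and Psma6 was at 175 ± 24.4 CPM in Runx2ko, 237 ± 11.9 CPM in Runx2wt and 223 ± 8.73 in BM progenitor, so its Runx2wt libraries were not below BM progenitor. The calls in Runx2ko were lost without BM progenitor replicate 1 or 3, and those of Psma2, Psma3, Psma4 and Psma7 also without replicate 2; the calls in Runx2wt were lost without any one of the 6 compared libraries.

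Psma8, which encodes an alpha subunit of the testis proteasome, had few counts and a wide spread. Its counts were 0, 84 and 21 in Runx2ko, 1, 0 and 11 in Runx2wt and 7, 5 and 8 in BM progenitor. The high counts were in Runx2ko replicates 2 and 3, the groups overlapped, and the log2 fold change of 2.33 against BM progenitor (SE 1.32, edgeR adjusted p = 0.247) did not pass. Without Runx2ko replicate 1 it passed as higher (log2 fold change 2.90, edgeR adjusted p = 0.0315). Psmb11, the beta subunit of the thymus proteasome, had 1 count in Runx2wt replicate 3 and 1 in BM progenitor replicate 1 and was not tested.

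Beta subunits hold the proteolytic sites or shape the inner rings. Of 7 tested constitutive beta genes 5 were lower in Runx2ko (Psmb2, Psmb3, Psmb4, Psmb6 and Psmb7) and 2 in Runx2wt (Psmb2 and Psmb4), each against BM progenitor. Over all tested genes 7.14% and 5.23% passed as lower. Psmb2 stood at 59.8, 57.1 and 78.0 CPM in Runx2ko, 108, 83.7 and 75.4 CPM in Runx2wt and 141, 143 and 147 in BM progenitor. The level was lowest in Runx2ko replicates 1 and 2, and Runx2wt replicate 3 fell below Runx2ko replicate 3; every BM progenitor library lay above both groups. The log2 fold change was -1.14 (SE 0.19, edgeR adjusted p = 0.00701) in Runx2ko, a level of 45.3% of BM progenitor, and -0.69 (SE 0.19, edgeR adjusted p = 0.04) in Runx2wt. This call in Runx2ko held in all 9 fits that each left out 1 library. Psmb4 was at 507, 489.8 and 562 CPM in Runx2ko, 569.7, 540.1 and 536 CPM in Runx2wt and 877, 883 and 762 in BM progenitor. The transformed groups overlapped each other and lay below BM progenitor, at -0.70 (SE 0.13, edgeR adjusted p = 0.0112) in Runx2ko and -0.62 (SE 0.13, edgeR adjusted p = 0.0192) in Runx2wt. Psmb7 had 62.8, 75.9 and 51.8 CPM in Runx2ko, 94.1, 83.7 and 96.3 CPM in Runx2wt and 124, 142 and 106 in BM progenitor. This catalytic subunit, of trypsin-like activity, separated all 3 groups, with Runx2ko lowest at -0.96 (SE 0.19, edgeR adjusted p = 0.0127) and Runx2wt at -0.44 (SE 0.19, edgeR adjusted p = 0.142), which did not pass. Psmb6 stood at 199.6, 185 and 152 CPM in Runx2ko, 195, 201 and 285 CPM in Runx2wt and 308, 289 and 284 in BM progenitor. Psmb6, of caspase-like activity, passed in Runx2ko (-0.72, SE 0.19, edgeR adjusted p = 0.0305) and not in Runx2wt (-0.37, SE 0.19, edgeR adjusted p = 0.196), where replicate 3 reached the BM progenitor range. Psmb5 was at 70.8, 62.6 and 46.4 CPM in Runx2ko, 67.0, 77.0 and 69.8 CPM in Runx2wt and 72.1, 87.9 and 75.0 in BM progenitor. The third catalytic subunit, of chymotrypsin-like activity, did not pass in Runx2ko (-0.39, SE 0.19, edgeR adjusted p = 0.187) or Runx2wt (-0.14, SE 0.19, edgeR adjusted p = 0.657), and its Runx2wt libraries overlapped BM progenitor. Psmb1 was the exception in direction: its level was 393, 428 and 391 CPM in Runx2ko, 437, 419.9 and 397 CPM in Runx2wt and 396, 362 and 359 in BM progenitor. Its Runx2wt libraries all lay above BM progenitor, the 1 tested proteasome gene with that pattern, against 24.8% of all genes, at 0.17 (SE 0.13, edgeR adjusted p = 0.39) on the log2 scale, which did not pass. The Runx2ko calls of Psmb3 and Psmb6 were lost without Runx2ko replicate 3 or any BM progenitor library and those of Psmb4 and Psmb7 without BM progenitor replicate 1 or 2. The Runx2wt calls of Psmb2 and Psmb4 were lost without Runx2wt replicate 2 or any BM progenitor library, and that of Psmb2 also without Runx2wt replicate 3.

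**Figure D3:**
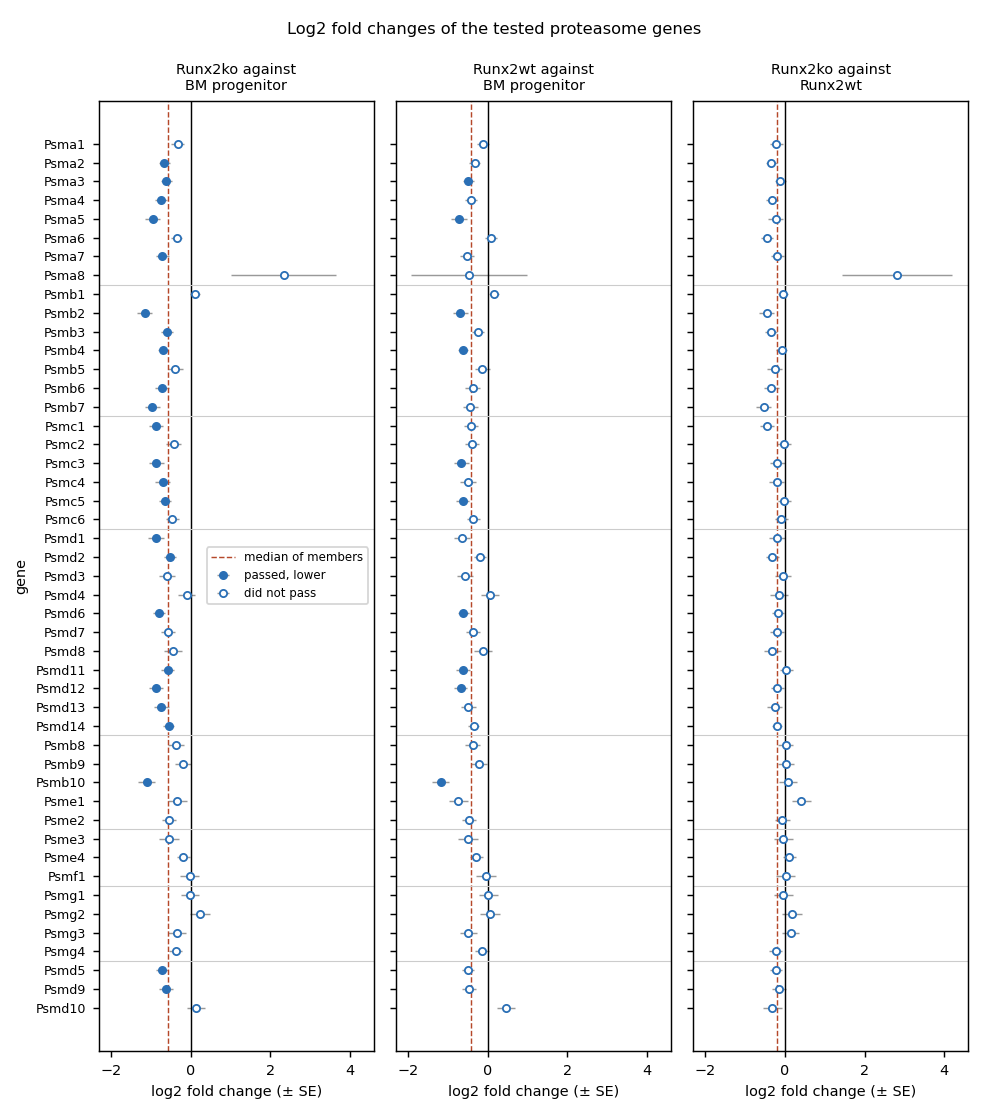
Log2 fold change (x axis, with its SE) of the 47 tested proteasome genes (rows, grouped by role) in Runx2ko against BM progenitor, Runx2wt against BM progenitor and Runx2ko against Runx2wt; filled points passed the edgeR test, open points did not, and the dashed line is the median of the genes. The medians are -0.56, -0.42 and -0.18, filled points number 24, 10 and 0, and Psma8 stands far to the right with a wide error in both panels of Runx2ko.

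The ATPases of the cap form the ring that unfolds substrates. All 6 genes had lower libraries in each transformed group than in BM progenitor without overlap, against 18.8% of all genes in Runx2ko and 24.5% in Runx2wt. With edgeR 4 passed in Runx2ko (Psmc1, Psmc3, Psmc4 and Psmc5) and 2 in Runx2wt (Psmc3 and Psmc5), against 7.14% and 5.23% of all tested genes lower. Psmc1 had 191, 209.9 and 161 CPM in Runx2ko, 244, 218 and 303 CPM in Runx2wt and 392, 317 and 312 in BM progenitor. All groups were separate, at -0.86 (SE 0.18, edgeR adjusted p = 0.0158) in Runx2ko and -0.42 (SE 0.18, edgeR adjusted p = 0.147) in Runx2wt, which did not pass. Psmc3 stood at 187, 228 and 145 CPM in Runx2ko, 217, 184 and 239 CPM in Runx2wt and 351, 327 and 338 in BM progenitor. The transformed groups overlapped, with Runx2ko replicate 3 lowest, and both passed (-0.86, SE 0.19, edgeR adjusted p = 0.0176 in Runx2ko and -0.67, SE 0.19, edgeR adjusted p = 0.045 in Runx2wt). Psmc5 was at 105, 119 and 90.5 CPM in Runx2ko, 110.1, 96.7 and 110.4 CPM in Runx2wt and 179.6, 162 and 149 in BM progenitor. Its log2 fold changes were close to each other, -0.64 (SE 0.16, edgeR adjusted p = 0.0263) in Runx2ko and -0.63 (SE 0.16, edgeR adjusted p = 0.0338) in Runx2wt. Psmc2 and Psmc6 did not pass in either group, with log2 fold changes of -0.42 and -0.46 in Runx2ko and -0.40 and -0.36 in Runx2wt. The Runx2ko calls were lost without BM progenitor replicate 1 or 2 and, other than that of Psmc1, without replicate 3; those of Psmc4 and Psmc5 were lost also without Runx2ko replicate 3, and that of Psmc4 without Runx2wt replicate 2 or 3. Both Runx2wt calls were lost without any one of the 6 compared libraries.

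Non-ATPase subunits of the cap bind and strip ubiquitin chains or build the lid. Of 11 tested, 7 were lower in Runx2ko (Psmd1, Psmd2, Psmd6, Psmd11, Psmd12, Psmd13 and Psmd14) and 3 in Runx2wt (Psmd6, Psmd11 and Psmd12), against 7.14% and 5.23% of all tested genes. Psmd6 had 110.3, 114 and 92.7 CPM in Runx2ko, 123, 119 and 116 CPM in Runx2wt and 198, 173 and 175 in BM progenitor. This lid subunit lay lower in every transformed library than in any BM progenitor library, at -0.79 (SE 0.14, edgeR adjusted p = 0.00997) in Runx2ko and -0.61 (SE 0.14, edgeR adjusted p = 0.0262) in Runx2wt, and every Runx2ko library was below every Runx2wt library. Psmd12 stood at 67.3, 75.9 and 72.9 CPM in Runx2ko, 86.9, 66.0 and 92.6 CPM in Runx2wt and 119.5, 143 and 132 in BM progenitor. Psmd12, also of the lid, had log2 fold changes of -0.87 (SE 0.17, edgeR adjusted p = 0.0129) in Runx2ko and -0.68 (SE 0.17, edgeR adjusted p = 0.0328) in Runx2wt, and Runx2wt replicate 2 was the lowest of the 9 libraries. Psmd11 was at 162, 153 and 118 CPM in Runx2ko, 126, 139 and 156 CPM in Runx2wt and 204, 230.1 and 212 in BM progenitor. Psmd11, a lid subunit that clamps core to cap, had log2 fold changes of -0.58 (SE 0.17, edgeR adjusted p = 0.0423) in Runx2ko and -0.62 (SE 0.17, edgeR adjusted p = 0.0397) in Runx2wt. Psmd14 had 197, 219 and 206 CPM in Runx2ko, 249.5, 214 and 249.6 CPM in Runx2wt and 293, 310.2 and 308 in BM progenitor. Psmd14, the deubiquitinase of the lid, passed in Runx2ko (-0.55, SE 0.13, edgeR adjusted p = 0.0242) and not in Runx2wt (-0.35, SE 0.13, edgeR adjusted p = 0.103). Psmd1 averaged 158 ± 37.8 CPM in Runx2ko, 182 ± 16.4 CPM in Runx2wt and 286 ± 33.4 in BM progenitor (SD, n = 3 each). Psmd1, a scaffold of the base, lay below BM progenitor in every transformed library and passed in Runx2ko (-0.86, SE 0.20, edgeR adjusted p = 0.0216) and not in Runx2wt (-0.65, SE 0.20, edgeR adjusted p = 0.058). Psmd4, a ubiquitin receptor, did not follow: its level was 434, 404 and 294 CPM in Runx2ko, 341, 396 and 520.2 CPM in Runx2wt and 480.5, 402 and 329.8 in BM progenitor. The 3 groups overlapped, with log2 fold changes of -0.10 in Runx2ko and 0.05 in Runx2wt against BM progenitor. Psmd8 stood at 408, 447 and 478 CPM in Runx2ko, 469, 415 and 772 CPM in Runx2wt and 610.0, 632 and 556 in BM progenitor. Psmd8, a lid subunit, had its highest level in Runx2wt replicate 3, and neither -0.43 (SE 0.22, edgeR adjusted p = 0.207) in Runx2ko nor -0.12 (SE 0.22, edgeR adjusted p = 0.743) in Runx2wt passed. Without BM progenitor replicate 1 all 7 Runx2ko calls other than that of Psmd12 were lost, without replicate 2 all other than that of Psmd6, and without replicate 3 all other than those of Psmd6 and Psmd13. Psmd2, Psmd11 and Psmd13 were lost also without Runx2ko replicate 3, Psmd11 and Psmd13 without replicate 2, Psmd2 without replicate 1 or Runx2wt replicate 1, and Psmd2 and Psmd11 without Runx2wt replicate 2. The Runx2wt calls were lost without any one of the 6 compared libraries, other than that of Psmd12, which held without Runx2wt replicate 3.

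Of the 7 assembly chaperone genes, 2 passed in Runx2ko, where the cap chaperones Psmd5 and Psmd9 were lower than in BM progenitor, and 0 passed in Runx2wt. Over all tested genes 7.14% passed as lower in Runx2ko and 5.23% in Runx2wt. Psmd5 was at 66.3, 68.5 and 57.7 CPM in Runx2ko, 83.0, 69.0 and 73.7 CPM in Runx2wt and 110.2, 101 and 104 in BM progenitor. All groups were separate, with -0.71 (SE 0.15, edgeR adjusted p = 0.0162) in Runx2ko and -0.48 (SE 0.15, edgeR adjusted p = 0.0615) in Runx2wt, which did not pass. Psmd9 had 39.8, 53.5 and 42.5 CPM in Runx2ko, 47.0, 46.8 and 56.5 CPM in Runx2wt and 67.5, 72.3 and 69.5 in BM progenitor. Both transformed groups of Psmd9 lay below BM progenitor and overlapped each other, with -0.62 (SE 0.17, edgeR adjusted p = 0.0385) in Runx2ko and -0.48 (SE 0.17, edgeR adjusted p = 0.0918) in Runx2wt, which did not pass. Psmd10 stood at 50.8, 72.7 and 62.9 CPM in Runx2ko, 67.2, 64.8 and 100.2 CPM in Runx2wt and 65.7, 56.9 and 46.7 in BM progenitor. Psmd10 (gankyrin), known as an oncoprotein in liver cancer, ran above BM progenitor in 2 Runx2wt libraries, and neither 0.14 (SE 0.23, edgeR adjusted p = 0.713) in Runx2ko nor 0.45 (SE 0.23, edgeR adjusted p = 0.208) in Runx2wt passed. The core chaperones Psmg1, Psmg2, Psmg3 and Psmg4 did not pass. Psmg3 was at 111, 166 and 93.5 CPM in Runx2ko, 121, 95.3 and 119 CPM in Runx2wt and 146, 166 and 156 in BM progenitor. Runx2ko replicate 2 of Psmg3 was inside the BM progenitor range, with -0.34 (SE 0.22, edgeR adjusted p = 0.312) in Runx2ko and -0.48 (SE 0.22, edgeR adjusted p = 0.16) in Runx2wt. Psmg2 was at 106 ± 34.8 CPM in Runx2ko, 93.1 ± 7.87 CPM in Runx2wt and 89.15 ± 13.55 in BM progenitor. The calls of Psmd5 and Psmd9 were lost without any BM progenitor library, and that of Psmd9 also without Runx2ko replicate 1 or 3 or Runx2wt replicate 1 or 2.

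Among the 5 immunoproteasome genes Psmb10 was lower in both transformed groups and the other 4 did not pass. The shares of all tested genes that passed as lower were 7.14% in Runx2ko and 5.23% in Runx2wt. Psmb10 had 48.8, 56.9 and 81.8 CPM in Runx2ko, 57.2, 52.4 and 68.2 CPM in Runx2wt and 146, 115 and 142 in BM progenitor. BM progenitor lay above both transformed groups, whose ranges overlapped, and the log2 fold change was -1.10 (SE 0.22, edgeR adjusted p = 0.0134) in Runx2ko and -1.18 (SE 0.22, edgeR adjusted p = 0.0126) in Runx2wt, or 46.6% and 44.1% of the BM progenitor level. The call was lost without BM progenitor replicate 1 or 3 in both comparisons and, in Runx2wt, without Runx2wt replicate 2. Psme1 stood at 171, 83.0 and 139.8 CPM in Runx2ko, 103, 105 and 88.8 CPM in Runx2wt and 165, 158 and 173 in BM progenitor. For this activator subunit every Runx2wt library lay below BM progenitor, Runx2ko replicate 1 was inside the BM progenitor range and Runx2ko replicate 2 was the lowest of the 9; the log2 fold change was -0.33 (SE 0.24, edgeR adjusted p = 0.361) in Runx2ko and -0.74 (SE 0.24, edgeR adjusted p = 0.0679) in Runx2wt. Psme1 passed as lower in Runx2wt without Runx2ko replicate 1 (edgeR adjusted p = 0.0146) and without Runx2ko replicate 2. Psme2 was at 86.0, 91.9 and 96.8 CPM in Runx2ko, 76.2, 101 and 109 CPM in Runx2wt and 149, 116 and 133 in BM progenitor. Psme2, the partner of Psme1 in the activator ring, lay below BM progenitor in every transformed library, and neither -0.54 (SE 0.18, edgeR adjusted p = 0.0676) in Runx2ko nor -0.48 (SE 0.18, edgeR adjusted p = 0.102) in Runx2wt passed. Psmb8 had 297, 198 and 191 CPM in Runx2ko, 229, 211 and 237 CPM in Runx2wt and 325, 252 and 303 in BM progenitor. Runx2ko replicate 1 was high among transformed libraries, and the log2 fold change was -0.36 (SE 0.20, edgeR adjusted p = 0.231) in Runx2ko and -0.38 (SE 0.20, edgeR adjusted p = 0.213) in Runx2wt; without Runx2ko replicate 1 Psmb8 passed as lower in Runx2ko (log2 fold change -0.60, edgeR adjusted p = 0.02). Psmb9 stood at 143, 115 and 165 CPM in Runx2ko, 134, 152 and 127 CPM in Runx2wt and 196, 130.3 and 153 in BM progenitor. The 3 groups of Psmb9 overlapped, with -0.18 (SE 0.20, edgeR adjusted p = 0.563) in Runx2ko and -0.22 (SE 0.20, edgeR adjusted p = 0.483) in Runx2wt. Where counting used no strand, Psmb9 and Tap1, which lie antisense to each other, may share reads, as may Psme1 and Emc9; 11 of the 48 genes overlap a counted gene on the other strand.

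Transcripts of the catalytic subunits that take each other's places were compared as a log2 ratio of CPM within each library. No scaling between libraries alters this ratio beyond the pseudocount of 0.5. A ratio of transcripts does not show which subunit was built into the core. Psmb10 over Psmb7 was at -0.36, -0.41 and 0.66 in Runx2ko, -0.71, -0.67 and -0.50 in Runx2wt and 0.24, -0.31 and 0.42 in BM progenitor. Runx2wt lay below the other groups without overlap, and Runx2ko and BM progenitor overlapped. The ratio was -0.04 ± 0.60 in Runx2ko, -0.63 ± 0.12 in Runx2wt and 0.12 ± 0.38 in BM progenitor (SD, n = 3 each), so Runx2ko differed from Runx2wt by 0.59 and Runx2wt from BM progenitor by -0.75. Without Runx2ko replicate 3 the first of these was 0.24. With all libraries each had an exact two-sided permutation p of 0.1, the smallest that 3 against 3 libraries allow, and 0.45 after adjustment over 9 tests. In Runx2ko against Runx2wt the log2 fold change was -0.52 for Psmb7 and 0.08 for Psmb10, and neither passed with edgeR. Psmb9 over Psmb6 was at -0.35 ± 0.42 in Runx2ko, -0.70 ± 0.41 in Runx2wt and -0.90 ± 0.25 in BM progenitor, with overlap in every pair of groups. Psmb8 over Psmb5 was at 1.92 ± 0.23 in Runx2ko, 1.66 ± 0.18 in Runx2wt and 1.90 ± 0.34 in BM progenitor, also with overlap. The exact permutation p of these other ratios was 0.2 to 0.8.

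**Figure D4:**
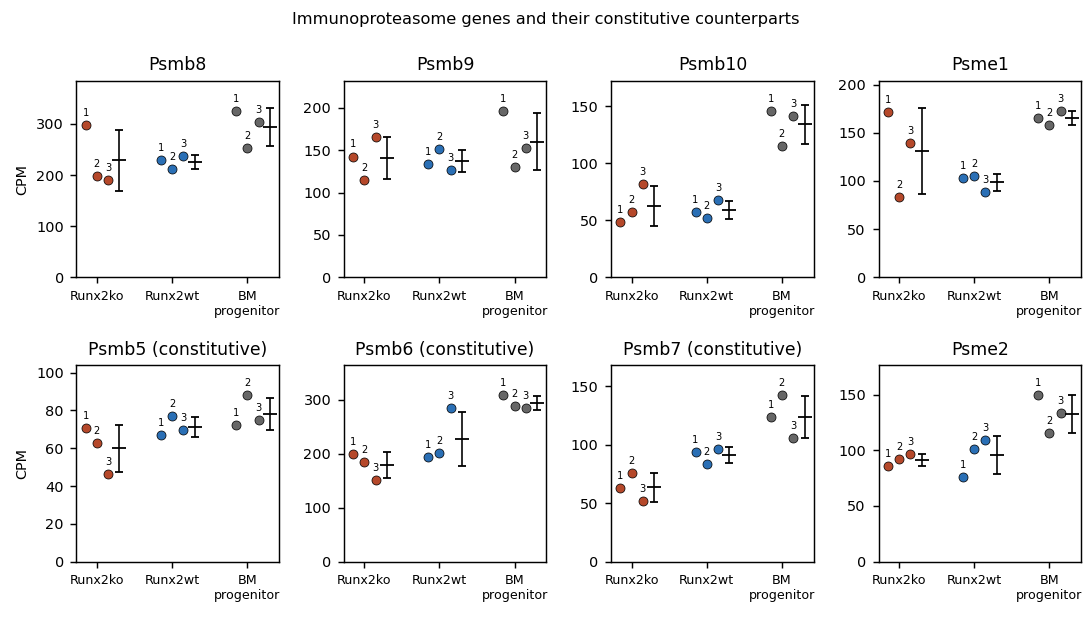
CPM (y axes, from 0) of the 5 immunoproteasome genes and of Psmb5, Psmb6 and Psmb7, whose places Psmb8, Psmb9 and Psmb10 take, in each library; points carry the replicate number, and bars give the mean ± SD of each group (n = 3). Psmb10 is at 48.8 to 81.9 CPM in Runx2ko and 52.4 to 68.2 CPM in Runx2wt against 115 to 146 CPM in BM progenitor, Psmb7 is lowest in Runx2ko, then Runx2wt, and Psme1 spreads widely in Runx2ko.

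The 3 other regulators did not pass in any comparison. Psme3 was at 141, 155 and 78.0 CPM in Runx2ko, 133, 106 and 143 CPM in Runx2wt and 165, 186 and 191 in BM progenitor. Psme3, a nuclear activator, had its lowest level in Runx2ko replicate 3, with -0.53 (SE 0.25, edgeR adjusted p = 0.164) in Runx2ko and -0.50 (SE 0.25, edgeR adjusted p = 0.196) in Runx2wt against BM progenitor. Psme4 had 112, 84.9 and 85.1 CPM in Runx2ko, 83.2, 81.8 and 96.3 CPM in Runx2wt and 109, 108 and 102 in BM progenitor. Psme4, an activator of the nucleus and the testis, overlapped between the transformed groups. Psmf1, which encodes the inhibitor PI31, was at 33.4 ± 11.4 CPM in Runx2ko, 33.0 ± 0.854 CPM in Runx2wt and 34.0 ± 3.50 in BM progenitor.

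Deletion of Runx2 in transformed cells was the question of the comparison of Runx2ko with Runx2wt, and no proteasome gene passed in it. edgeR called 0 of the 47 tested genes and 0 of all 11196 (0.0% lower, 0.0% higher); DESeq2 called 0 proteasome genes and 46 of all. At an unadjusted edgeR p under 0.05 there were 6 proteasome genes, Psma6, Psmb7, Psma2, Psmc1, Psmb2 and Psmb3, all lower in Runx2ko, against 7.91% of all tested genes. The groups did not overlap, with Runx2ko lower, for 8 genes (Psma2, Psma4, Psma6, Psmb3, Psmb7, Psmc1, Psmd5 and Psmd6), against 4.73% of all genes, and for 0 genes with Runx2ko higher, against 4.95%. The largest of these differences were -0.52 for Psmb7 (SE 0.19, edgeR adjusted p = 0.579), -0.45 for Psmc1 (SE 0.18, edgeR adjusted p = 0.59) and -0.44 for Psma6 (SE 0.15, edgeR adjusted p = 0.579). The most counted genes of the roles were at -0.33 (Psma2), -0.08 (Psmb4), -0.31 (Psmd8), -0.23 (Psmd5), 0.15 (Psmg3) and -0.03 (Psme3), and the catalytic Psmb5 and Psmb6 at -0.25 and -0.34, with edgeR adjusted p of 0.585 to 0.98. The median over the 47 genes was -0.18, against 0.01 for all genes, and 37 values lay below 0, against 48.6% of all genes; without Runx2wt replicate 3 the median was -0.09, without Runx2ko replicate 3 it was -0.10, and without Runx2ko replicate 1 it was -0.17. The immunoproteasome genes had a median of 0.04, with 0.41 for Psme1 (SE 0.24, edgeR adjusted p = 0.69; 0.17 without Runx2ko replicate 1 and 0.67 without replicate 2) and between -0.06 and 0.08 for the other 4. Whether the immunoproteasome and the rest differed in this comparison was not tested.

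Partners of the proteasome that lie outside the naming rule were followed by a list of 13, of which 12 were tested. In Runx2ko 2 were higher and 0 lower than in BM progenitor, against 10.0% of all tested genes higher, and in Runx2wt 2 were higher and 0 lower, against 8.28%; in each case these were Ecpas and Fbxo7. The other 10 did not pass, and the list median was -0.10 in Runx2ko and -0.07 in Runx2wt. Among those 10, log2 fold changes ran from -0.72 (Pomp) to 0.40 (Zfand5) in Runx2ko. In Runx2wt they ran from -0.83 (Adrm1) to 0.48 (Sem1). Ecpas stood at 128, 141 and 151 CPM in Runx2ko, 150.5, 244 and 118 CPM in Runx2wt and 70.6, 71.2 and 69.5 in BM progenitor. Ecpas, which tethers core and cap and can hold back the proteasome, had log2 fold changes of 0.99 (SE 0.24, edgeR adjusted p = 0.0256) in Runx2ko and 1.28 (SE 0.25, edgeR adjusted p = 0.0137) in Runx2wt. Fbxo7 was at 96.1, 118 and 82.9 CPM in Runx2ko, 55.3, 82.6 and 95.4 CPM in Runx2wt and 48.2, 41.8 and 39.9 in BM progenitor. Fbxo7, an F-box protein that binds PI31, had log2 fold changes of 1.19 (SE 0.23, edgeR adjusted p = 0.0121) in Runx2ko and 0.84 (SE 0.23, edgeR adjusted p = 0.0419) in Runx2wt. Among 9 tested genes of the Nfe2l1 route, 2 were higher in Runx2ko (Sel1l and Nfe2l1) against 10.0% of all tested genes, and 1 in Runx2wt (Sel1l), against 8.28%, with 0 lower. Nfe2l1 had 158, 145 and 144 CPM in Runx2ko, 89.4, 134 and 177 CPM in Runx2wt and 75.0, 99.5 and 72.0 in BM progenitor. Every Runx2ko library lay above BM progenitor and Runx2wt replicate 1 was inside its range, with 0.86 (SE 0.24, edgeR adjusted p = 0.0408) in Runx2ko. Of 12 tested genes for ubiquitin supply and shuttling, Rps27a and Ubb, both of which encode ubiquitin, were higher in Runx2ko (0.68, SE 0.18, edgeR adjusted p = 0.0292 and 0.58, SE 0.15, edgeR adjusted p = 0.0308) and in Runx2wt (0.69, SE 0.18, edgeR adjusted p = 0.0338 and 0.55, SE 0.15, edgeR adjusted p = 0.0413), with the same 10.0% and 8.28% of all tested genes higher. All of these calls were lost without BM progenitor replicate 2, without replicate 3 and, other than that of Fbxo7 in Runx2ko, without replicate 1. Leaving out 1 of the transformed libraries also ended those of Ecpas in Runx2ko, of Fbxo7 and Sel1l in Runx2wt, of Nfe2l1 in Runx2ko and of Rps27a and Ubb in both groups.

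Genes that act with the immunoproteasome were followed through 14 tested genes of class I antigen presentation and 28 of the interferon response. Tap2, a subunit of the transporter that carries proteasome products into the endoplasmic reticulum, was higher in both transformed groups. Tap2 stood at 332, 382 and 566 CPM in Runx2ko, 423, 418 and 492 CPM in Runx2wt and 188, 130.3 and 104 in BM progenitor. No transformed library overlapped BM progenitor, and the log2 fold change was 1.60 (SE 0.26, edgeR adjusted p = 0.00701) in Runx2ko and 1.66 (SE 0.26, edgeR adjusted p = 0.00686) in Runx2wt. The call in Runx2ko held in all 9 fits that each left out 1 library and that in Runx2wt was lost without BM progenitor replicate 3. H2-Q7, a class I gene of the Qa region, was lower in Runx2wt (-4.96, SE 0.91, edgeR adjusted p = 0.0121), a call lost without BM progenitor replicate 3 or Runx2wt replicate 2. In Runx2ko it lay below BM progenitor without overlap but did not pass (-1.95, SE 0.76, edgeR adjusted p = 0.107). Its Runx2ko libraries had 40.1, 25.1 and 1.90 CPM, and without Runx2ko replicate 1 it passed (edgeR adjusted p = 0.0156). The other tested class I genes did not pass. Of the interferon genes, Gbp2 was lower and Ifnar2 and Irf9 were higher in Runx2ko, and Ifi47 was lower in Runx2wt, whereas 25 of 28 did not pass in Runx2ko and 27 of 28 in Runx2wt. The 3 and 1 that passed compare with 17.2% and 13.5% of all tested genes called in either direction, and the class I list had 1 call in Runx2ko and 2 in Runx2wt among its 14 genes. The 4 interferon calls were lost without any one of the BM progenitor libraries. Of 9 fits that each left out 1 library, 8 lost the call of Ifnar2 and 7 that of Irf9. The call of Gbp2 was lost also without Runx2ko replicate 2, and that of Ifi47 without Runx2wt replicate 1 or 2. Gbp2 had low levels, with a mean of 1.33 CPM in Runx2ko and 8.27 in BM progenitor. Between Runx2ko and Runx2wt 0 genes of these lists passed with edgeR.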

How the data were processed

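QuantSeq 3' tag libraries, in which a count reflects a transcript and not its length, were made from 500 ng of RNA, per the labels' protocols. The deposited tables hold raw counts for Ensembl genes and the authors' normalized values, which equal the counts over 1 scaling constant for each library, as a division of one table by the other showed. FastQC, STAR and DESeq2 were used with build GRCm38, per the submitters' processing notes; the counting program, the annotation and the use of strand are unknown from the sources used. Symbols came from GENCODE and matched 21042 of 21159 identifiers. Here the counts were tested with edgeR 4.0.16 (R 4.3.3): TMM factors, filterByExpr, the quasi-likelihood F-test on all 9 libraries, and Benjamini-Hochberg adjustment over 11196 genes with a threshold of 0.05. CPM used TMM-scaled library sizes. Ratios were compared by exact permutation (scipy 1.17.1). The fit was tested on simulated data. Every pair of replicates differed beyond sampling noise.

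Genes given in full were the immunoproteasome genes with Psmb5, Psmb6 and Psmb7 and, per role and comparison, up to 3 passing genes by smallest p whose groups did not overlap, or the most counted one; Psma1, Psma6, Psma7, Psma8, Psmb1, Psmb11, Psmc2, Psmc6, Psmd4, Psmd10, Psmd14, Psmg2, Psme4 and Psmf1 were described after their values were seen. Members and lists were chosen with earlier results of these data known. Alternatives were RLE factors, library totals, other filters, DESeq2 1.42.0, limma-voom (limma 3.58.1), limma on the authors' normalized values (pseudocount 1), only the compared libraries, a replicate block and leaving out each library.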

Additional observations from a re-analysis of the deposited data

How the results depend on the processing

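The median log2 fold change of the 47 tested proteasome genes kept its sign over all 19 settings in each comparison, whereas the number of calls did not stay. The genes lower in Runx2ko than in BM progenitor numbered 24, and 12 with the replicate block; leaving out 1 library gave 2 to 26, and 0 to 1 higher, the 1 being Psma8. The genes lower in Runx2wt than in BM progenitor numbered 10, and 2 with no filter, 16 with DESeq2, 23 with only the compared libraries and 1 with the replicate block; leaving out 1 library gave 0 to 15. Immunoproteasome genes lower numbered 1 in Runx2ko (2 with library totals or DESeq2) and 1 in Runx2wt (2 with library totals, DESeq2 or only the compared libraries), and 0 to 2 in each when 1 library was left out. The 10 core genes lower in Runx2ko became 6 with the replicate block, and the 11 cap genes 6 with no filter, 5 with only the compared libraries and 4 with the block. The 4 core and 5 cap genes lower in Runx2wt became 1 and 0 with no filter, 7 and 10 with only the compared libraries and 0 and 0 with the block. Over all tested genes the 1924 calls in Runx2ko became 1262 with only the compared libraries, 1120 with the block and 405 to 3311 with 1 library left out; the 1513 in Runx2wt became 2390 with DESeq2, 3679 with only the compared libraries, 922 with the block and 209 to 3256 with 1 library left out. Between Runx2ko and Runx2wt the 0 calls over all genes became 46 with DESeq2 and 5 without Runx2ko replicate 1. A fit without a library has fewer samples; for the other changes the cause was not tested. Replicate numbers are shared by the groups, and same-numbered libraries gave an r of -0.07 to 0.07 over 9 pairs, 0 above 0.1. Differently numbered libraries gave -0.115 to 0.14. These r rest on deviations from means of 3 libraries, so they show no pairing but cannot exclude a weak one. Whether the replicate block removes a shared effect was not tested. Scaling by library totals moved the median of all genes from 0.01 to -0.09 in Runx2wt against BM progenitor, beside -0.52 for the proteasome genes, and the 927 higher and 586 lower calls over all genes to 739 and 724. The log2 ratio of Psmb8 over Psmb5 in Runx2ko against BM progenitor (0.02) ran from -0.17 to 0.16 and that of Psmb10 over Psmb7 (-0.16) from -0.50 to 0.03 when 1 library was left out. Between Runx2ko and Runx2wt the sign of small differences turned: Psmb8 (0.02) was -0.012 with limma-voom, -0.009 with the authors' normalized values and -0.003 with the replicate block. With 1 library left out, the log2 fold change ran from -0.21 to 0.13 for Psmb8, -0.16 to 0.22 for Psmb10, -0.10 to 0.19 for Psmb9, -0.193 to 0.045 for Psme2, -0.483 to 0.005 for Psmd8, -0.11 to 0.31 for Psmg3 and -0.21 to 0.21 for Psme3, none of which passed. Psma8 rests on few counts, and depth limits it and Psmb11.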
